A study of Mus musculus with 12 samples.

Results

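The 10 genes described here encode proteins of the neutrophil granules and of the maturing neutrophil. They were picked by symbol in the expression table, which held all 10 among its 55414 genes. The genes are S100a8, S100a9, Retnlg and Csf3r, which mark the mature neutrophil, Ltf, Camp, Ngp and Lcn2, which encode proteins of the specific granules, and Elane and Mpo, which encode proteins of the primary granules. Whole-lung RNA from 12 mice was sequenced on day 4 after 50 µg of lipopolysaccharide (LPS), a bacterial endotoxin that was instilled to cause acute lung injury (ALI). All mice had a C57BL/6 J background and received LPS, so that no untreated lung was compared. Of these, 6 were IL-10 B-WT mice and 6 were IL-10 B-KO mice, which lack Il10 in B cells through a floxed allele and Mb1-Cre, driven by the promoter of the B cell gene Cd79a. The sources used here do not give the ages, or whether the IL-10 B-WT mice carried the floxed allele or the Cre. The methods describe perfusion and airway lavage with PBS before lungs were excised in this model, without stating this for the sequenced lungs. The comparison addresses whether loss of IL-10 in B cells alters the neutrophil content of lungs that are recovering from ALI.

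Neutrophils are made in the bone marrow and fill their granules in order. The primary (azurophil) granules are formed at the promyelocyte stage, when Mpo and Elane are transcribed, the specific granules are formed later at the myelocyte stage, and the transcripts of calprotectin (S100a8 and S100a9) and of surface receptors prevail in mature cells. Neutrophils that reach an inflamed lung carry granule proteins whose transcription has mostly ceased, so that early and late granule transcripts mark different stages of the same lineage.

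Expression was given as TPM, a measure of transcript abundance that is corrected for gene length and scaled to the same total in each library. Between 21380 and 24138 genes were above 0 TPM per library. TPM keep no read depth, so that the counting error of a value is unknown, and the precision rests on the spread between lungs. The 8 alveolar genes had a summed level of 3961 to 23088 TPM. The lowest sum was that of IL-10 B-WT replicate 5, also the library with 21380 genes, and all other lungs were at 10329 TPM or more. The targeted gene, Il10, was listed at 0 to 0.88 TPM among IL-10 B-WT lungs and at 0 to 0.58 TPM in IL-10 B-KO lungs (two-sided exact permutation test, p = 0.745, n = 6 each), so that it did not separate the genotypes. B cell transcripts did. The 8 B cell genes summed to between 126.7 and 1691 TPM in IL-10 B-WT lungs but between 20.5 and 181.6 TPM among IL-10 B-KO lungs. In IL-10 B-KO replicates 1, 3, 4 and 5 the B cell receptor partner Cd79a was listed at 0.05 TPM or less, while replicates 2 and 6 held 4.35 and 5.73 TPM. Loss of IL-10 and loss of B cell transcripts can therefore not be told apart in these lungs.

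The late neutrophil genes lay at higher levels across most IL-10 B-KO lungs, without passing the threshold for all genes. Elane and Mpo, the primary granule genes among the 10, had differences near 0 on log2(TPM + 1). The log2 fold changes (IL-10 B-KO over IL-10 B-WT, on log2(TPM + 1)) were between 1.48 and 2.09 for the 4 mature genes, between 0.38 and 2.51 for the 4 specific granule genes, and 0.00 and 0.04 for Elane and Mpo. None passed the threshold for differential expression (an adjusted p from limma no larger than 0.05 and a log2 fold change of 1 or more in either direction), which 0.495% of all 15148 genes tested passed, 0.0264% as higher genes. At an unadjusted p of at most 0.05, 5 of the 10 were higher, namely S100a8, S100a9, Retnlg, Csf3r and Lcn2, where 6.83% of all genes tested were higher at that p. None of the 10 was lower at that p, as 5.71% of all genes tested were. A log2 fold change of 1 or more was seen for 6 of the 10 (these 5 and Ngp) and for 3.52% of all genes tested. In the exact permutation test, 3 of the 10 (S100a8, S100a9 and Retnlg) had a p below 0.05, and the smallest p that 6 lungs against 6 can give is 0.00216. This test was not run over all genes tested, so that no share of them can be set beside this count. The groups overlapped for all 10 genes, while 1.02% of all genes tested had groups without overlap. The median log2 fold change of the 10 was 1.32 and that of all genes tested 0.10. In whole lung, more neutrophils and more of a transcript per neutrophil cannot be told apart.

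**Figure D1:**
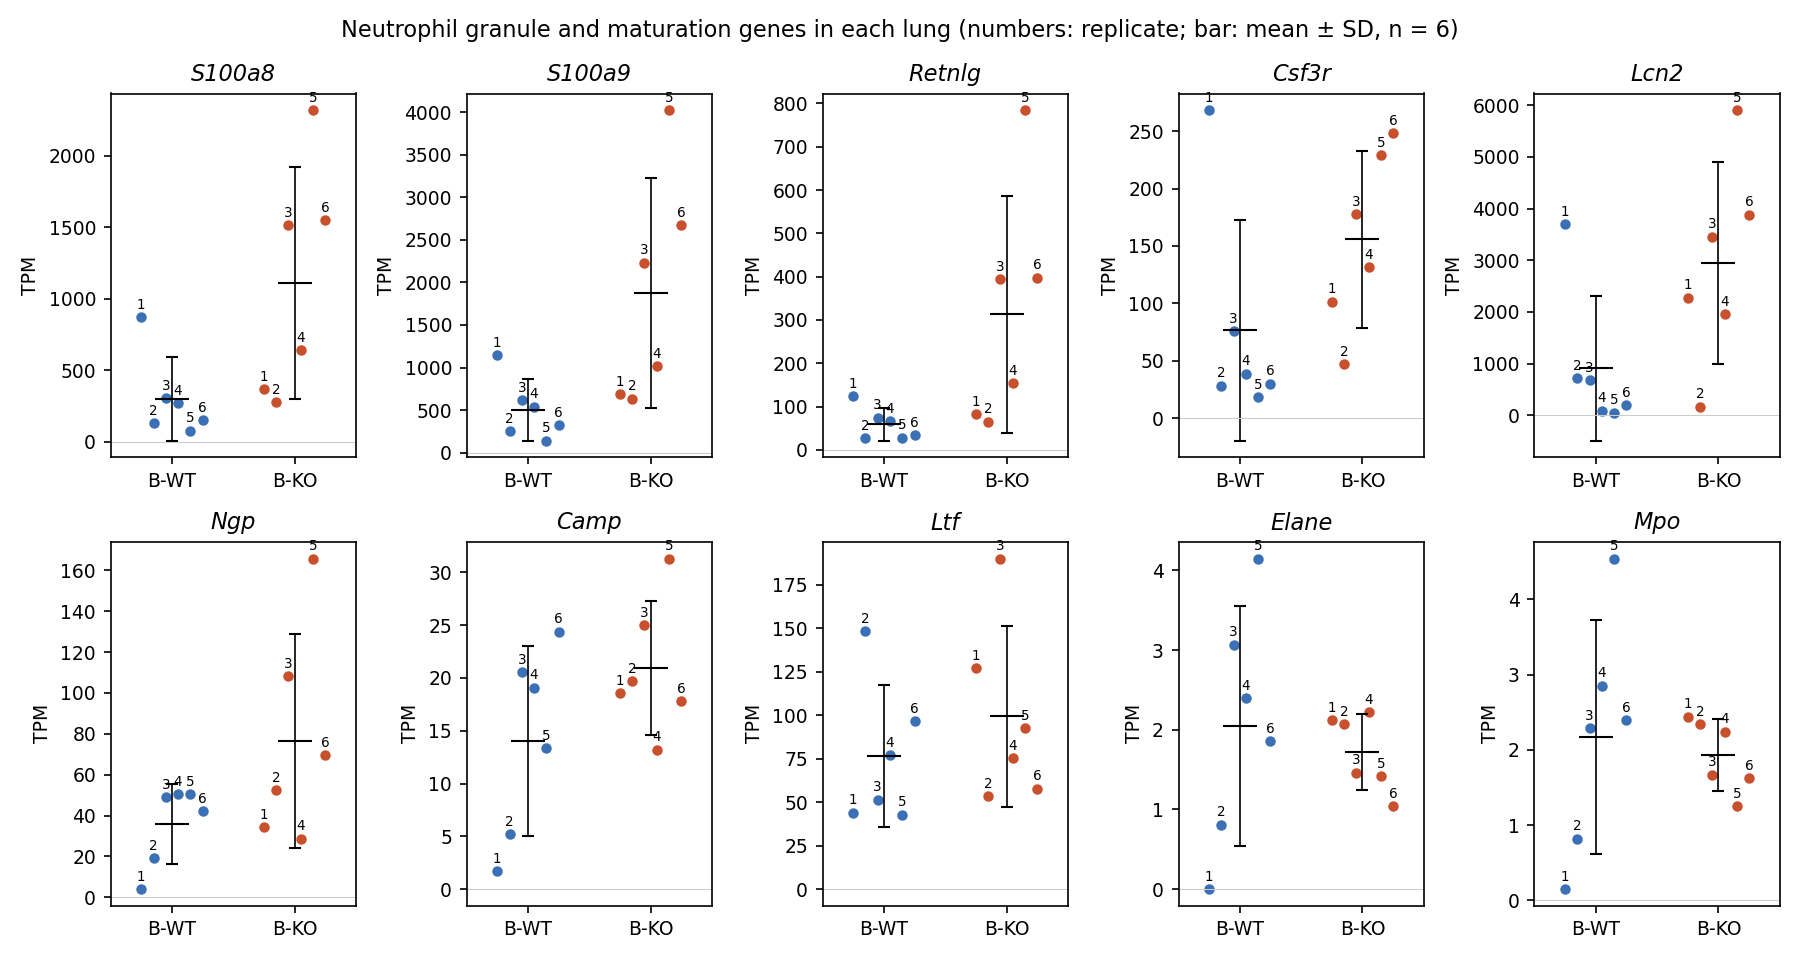
TPM (vertical axis) of each of the 10 genes in the 6 IL-10 B-WT (blue) lungs and the 6 IL-10 B-KO (orange) lungs, numbered by replicate, with the mean and SD as bars. IL-10 B-WT replicate 1 lies far above the other lungs of its genotype for S100a8, Csf3r and Lcn2 and lowest of all 12 lungs for Ngp, Camp, Elane and Mpo.

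S100a8 (ENSMUSG00000056054, chromosome 3, 90668978 to 90670035, plus strand, GRCm38) and S100a9 (ENSMUSG00000056071, chromosome 3, 90692632 to 90695721, minus strand) lie 22.6 kb apart and encode the 2 subunits of calprotectin, the most abundant cytosolic protein of neutrophils. S100a8 had a lowest value of 77.1, a median of 209.8 and a highest value of 871.1 TPM in IL-10 B-WT lungs, against 275.3, 1076 and 2320 TPM among IL-10 B-KO lungs. The highest IL-10 B-WT lung was replicate 1, and all but 1 (replicate 2) of the IL-10 B-KO lungs lay above each of the other 5 IL-10 B-WT lungs. The mean of the IL-10 B-WT lungs was 300.5 ± 292.6 TPM and that of the IL-10 B-KO lungs 1111 ± 810.9 TPM (SD, n = 6 each). This gave a log2 fold change of 1.94, with a standard error of 0.62 (exact permutation p = 0.0281, limma adjusted p = 0.266).

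S100a9 ranged from 143.7 to 1146 TPM in IL-10 B-WT lungs (median 432.4 TPM), and from 634.0 to 4024 TPM (median 1626 TPM) in IL-10 B-KO lungs. All 6 IL-10 B-KO lungs were above all IL-10 B-WT lungs other than replicate 1, which was above 3 of them. The log2 fold change was 1.87, with a standard error of 0.55 (exact permutation p = 0.0173, n = 6 each, limma adjusted p = 0.214). S100a9 also had the pattern closest to that of S100a8 over the 12 lungs (Pearson's r = 0.992, Spearman's rho = 0.993).

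The sequences before the start sites of this neighbouring pair are shown because the transcripts moved together from lung to lung. They are from the RefSeq promoter windows of build GRCm38.p6, which begin 250 bases before the RefSeq start site, and are printed up to the first base of the gene in GENCODE, which lies 93 bases before the RefSeq start of S100a8. They read 5′ to 3′ on the strand of the gene, at chr3:90668821-90668977 for S100a8 (plus) and chr3:90695722-90695971 for S100a9 (minus). The capitals mark matches to TTNNGNAA on either strand, a short form of the motif of C/EBP factors, which drive granulocyte genes.
S100a8: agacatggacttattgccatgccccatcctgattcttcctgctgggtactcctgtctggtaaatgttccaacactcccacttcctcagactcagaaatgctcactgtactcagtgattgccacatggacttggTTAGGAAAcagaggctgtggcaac
S100a9: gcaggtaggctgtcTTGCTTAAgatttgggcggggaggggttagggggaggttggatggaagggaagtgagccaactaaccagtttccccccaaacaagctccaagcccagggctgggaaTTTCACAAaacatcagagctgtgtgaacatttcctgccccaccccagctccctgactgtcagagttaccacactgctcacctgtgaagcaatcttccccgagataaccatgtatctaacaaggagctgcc
Over windows of 300 bases (250 before and 50 after the start), such a match was found for 6 of the 10 genes (S100a8, S100a9, Ltf, Ngp, Lcn2 and Retnlg) and for 40.7% of all 32851 windows. The S100a8 window held 1 match and the S100a9 window 2, all within the printed bases.

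Retnlg (ENSMUSG00000022651, chromosome 16, 48872621 to 48874496, plus strand), which encodes resistin-like gamma, a secreted protein of mouse neutrophils, had the smallest p of the 10 genes. It was at 27.5 to 123.5 TPM in IL-10 B-WT lungs (median 49.7 TPM) and at 64.8 to 784.6 TPM in IL-10 B-KO lungs (median 274.5 TPM). IL-10 B-KO replicates 3 to 6 were above every IL-10 B-WT lung, and replicates 1 and 2 lay among them. The log2 fold change was 2.09, with a standard error of 0.59 (exact permutation p = 0.0152, n = 6 each, limma adjusted p = 0.187).

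Csf3r (ENSMUSG00000028859, chromosome 4, 126024550 to 126044440, plus strand) encodes the receptor for G-CSF, the cytokine that drives neutrophil production and survival. Its values ran from 18.2 to 268.3 TPM in IL-10 B-WT lungs (median 34.5 TPM) and from 47.2 to 248.5 TPM in IL-10 B-KO lungs (median 154.7 TPM). The highest of all 12 lungs was IL-10 B-WT replicate 1, but 5 of 6 IL-10 B-KO lungs were above the other 5 IL-10 B-WT lungs. The log2 fold change was 1.48, with a standard error of 0.58 (exact permutation p = 0.0519, n = 6 each, limma adjusted p = 0.345). Csf3, which encodes G-CSF itself, was listed at 0 to 2.61 TPM among IL-10 B-WT lungs and at 0.13 to 3.67 TPM in IL-10 B-KO lungs, highest in replicate 1 of the former and replicate 5 of the latter, and was below the filter for testing.

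The call for these genes depended on 1 library. Without IL-10 B-WT replicate 1, all 4 mature genes passed the threshold, with limma adjusted p-values of 0.0393 for S100a8, 0.0408 for S100a9, 0.0442 for Retnlg and 0.0334 for Csf3r and log2 fold changes of 2.34, 2.17, 2.34 and 1.97, where 2.37% of all genes tested passed as higher. The same omission lowered the log2 fold changes of Ngp from 1.16 to 0.65 and of Camp from 0.85 to 0.43, and those of Elane and Mpo were then -0.28 and -0.22. None of the 10 passed when any other library was left out. IL-10 B-WT replicate 5 was the lowest of all lungs for S100a8, S100a9, Ltf, Lcn2 and Csf3r. Without it, the log2 fold change of S100a8 was 1.64 instead of 1.94 and that of Lcn2 1.97 instead of 2.51. The lungs of each genotype differed widely among themselves, as S100a8 was at 2320 TPM in IL-10 B-KO replicate 5 and at 275.3 TPM in IL-10 B-KO replicate 2.

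**Figure D2:**
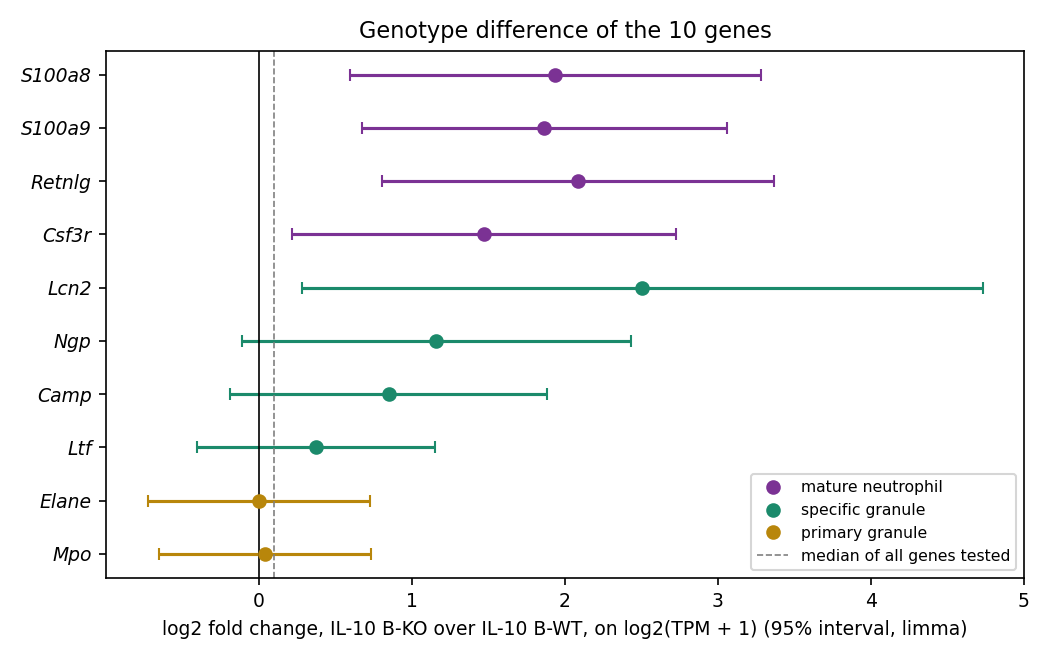
Log2 fold change on log2(TPM + 1) (horizontal axis, IL-10 B-KO over IL-10 B-WT) of each gene with its 95% interval from limma, coloured by stage. The intervals of the 4 mature genes and of Lcn2 lie above 0, and those of Ngp, Camp, Ltf, Elane and Mpo cross it.

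Lcn2 (ENSMUSG00000026822, chromosome 2, 32384633 to 32388252, minus strand) encodes lipocalin 2, which binds bacterial siderophores and is stored in specific granules, but is also made by injured lung epithelium and macrophages. Of the 10 genes it had the largest log2 fold change, 2.51, with a standard error of 1.03 (exact permutation p = 0.0649, n = 6 each, limma adjusted p = 0.356). Its values spread widely, from 52.0 to 3702 TPM in IL-10 B-WT lungs (median 442.0 TPM) and from 166.5 to 5907 TPM in IL-10 B-KO lungs (median 2867 TPM). IL-10 B-KO replicate 2 was far below the other 5 IL-10 B-KO lungs, which were at 1962 TPM or more, and IL-10 B-WT replicate 1 was above 3 of these 5. Lcn2 followed S100a8 over the 12 lungs (r = 0.853, permutation p adjusted over 11 relations = 0.00130, rho = 0.895, adjusted p = 7.15e-04). Without IL-10 B-KO replicates 5 and 6, the lungs farthest from the median of S100a8, r was 0.801 (adjusted p = 0.00992), and within the genotypes it was 0.758 for IL-10 B-WT and 0.817 for IL-10 B-KO lungs (exact permutation p adjusted = 0.103 and 0.0115, n = 6 each). With Ngp, another specific granule gene, no such relation was detected (r = -0.009, adjusted p = 0.978, rho = 0.147, adjusted p = 0.748), and r was -0.841 within the IL-10 B-WT lungs (exact permutation p adjusted = 0.0356, n = 6). The genes with the pattern most like Lcn2 were Pycard, Cmtm7, Ifi30, Adap1 and 1700017B05Rik (r = 0.988 to 0.994, 12 lungs), of which Pycard encodes the inflammasome adaptor ASC and Ifi30 a lysosomal thiol reductase of antigen-presenting cells.

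The other 3 specific granule genes lie on chromosome 9 within 1170 kb of each other. Ngp (ENSMUSG00000032484, 110419747 to 110423012, plus strand), which encodes neutrophilic granule protein of the cathelicidin-related family, lies between Camp (ENSMUSG00000038357, 109847379 to 109849617, minus strand), which encodes the antimicrobial cathelicidin, and Ltf (ENSMUSG00000032496, 111019271 to 111042767, plus strand), which encodes the iron-binding lactoferrin. Ngp was at 3.97 to 50.6 TPM in IL-10 B-WT lungs (median 45.5 TPM) and at 28.7 to 165.8 TPM in IL-10 B-KO lungs (median 61.0 TPM). Here 4 of 6 IL-10 B-KO lungs lay above every IL-10 B-WT lung, while replicates 1 and 4 were lower than 4 IL-10 B-WT lungs. Its log2 fold change was 1.16, with a standard error of 0.59 (exact permutation p = 0.104, n = 6 each, limma adjusted p = 0.438).

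Camp was at 1.71 to 24.4 TPM in IL-10 B-WT lungs (median 16.2 TPM) and at 13.2 to 31.3 TPM in IL-10 B-KO lungs (median 19.2 TPM), a log2 fold change of 0.85, with a standard error of 0.48 (limma adjusted p = 0.468). The groups overlapped over most of their range, and IL-10 B-WT replicates 1 and 2 were the lowest of all lungs. Ltf was at 42.8 to 148.2 TPM (median 64.2 TPM) and 53.5 to 190.1 TPM (median 83.8 TPM), a log2 fold change of 0.38, with a standard error of 0.36 (limma adjusted p = 0.654). Only IL-10 B-KO replicate 3 was above the highest IL-10 B-WT lung, replicate 2. Lactoferrin is also made by airway glands.

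Camp followed Ngp over the 12 lungs (r = 0.919, permutation p adjusted over 11 relations = 1.54e-04, rho = 0.741, adjusted p = 0.0141). This was still seen without replicate 1 of IL-10 B-WT and replicate 5 of IL-10 B-KO (r = 0.747, adjusted p = 0.0239), the lungs farthest from the median of Ngp. Within the genotypes, r was 0.946 for IL-10 B-WT and 0.917 for IL-10 B-KO lungs (exact permutation p adjusted = 0.0502 and 0.0229, n = 6 each). No such relation was detected between Ngp and Ltf (r = 0.283, adjusted p = 0.449, rho = 0.105, adjusted p = 0.748). The sequences before the start sites of Ngp and Ltf are shown for this contrast between neighbours, with the same motif in capitals, at chr9:110419558-110419746 and chr9:111019042-111019270, both read on the plus strand and again up to the first base of the gene in GENCODE.
Ngp: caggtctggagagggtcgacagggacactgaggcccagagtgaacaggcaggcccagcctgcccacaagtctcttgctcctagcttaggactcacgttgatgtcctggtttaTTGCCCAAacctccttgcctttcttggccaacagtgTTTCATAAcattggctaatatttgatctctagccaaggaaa
Ltf: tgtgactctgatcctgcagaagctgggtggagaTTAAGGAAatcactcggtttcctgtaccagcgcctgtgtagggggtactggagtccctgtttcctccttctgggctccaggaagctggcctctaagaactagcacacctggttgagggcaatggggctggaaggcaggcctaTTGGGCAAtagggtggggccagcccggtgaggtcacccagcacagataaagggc
The Ngp window held 3 matches, the most of the 10 genes, of which 2 are in the printed bases, and the Ltf window 2. The window of Camp, which followed Ngp, held 0.

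Elane (ENSMUSG00000020125, chromosome 10, 79886247 to 79888215, plus strand) encodes neutrophil elastase, and Mpo (ENSMUSG00000009350, chromosome 11, 87793581 to 87804413, plus strand) encodes myeloperoxidase, which makes hypochlorous acid. Both were near the lower limit of the tested range, with a TPM of at least 1 in 4 IL-10 B-WT and all 6 IL-10 B-KO lungs. Elane was listed at 0 to 4.15 TPM in IL-10 B-WT lungs (median 2.13 TPM) and at 1.04 to 2.22 TPM in IL-10 B-KO lungs (median 1.77 TPM). Mpo was listed at 0.15 to 4.54 TPM (median 2.34 TPM) and 1.25 to 2.44 TPM (median 1.96 TPM). For both genes the IL-10 B-WT lungs held the highest and the lowest values, and all IL-10 B-KO lungs lay between them.

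The log2 fold changes were 0.00 for Elane (95% interval -0.72 to 0.73, limma adjusted p = 0.997, exact permutation p = 0.998) and 0.04 for Mpo (95% interval -0.65 to 0.73, limma adjusted p = 0.965, exact permutation p = 0.937, n = 6 each). The bounds farthest from 0 were -0.72 and 0.73, and fold changes on log2(TPM + 1) understate the change of genes this low. With a pseudocount of 0.1 instead of 1, the log2 fold changes were 0.39 for Elane and 0.28 for Mpo (limma adjusted p = 0.827 and 0.845). The sign of both values turned with the scaling: with each library centred on its median, they were -0.10 for Elane and -0.07 for Mpo.

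Elane and Mpo followed each other (r = 0.958, permutation p adjusted over 11 relations = 5.50e-05, rho = 0.853, adjusted p = 0.00150), also without IL-10 B-WT replicates 1 and 5 (r = 0.853, adjusted p = 0.00273). Within the genotypes, r was 0.972 for IL-10 B-WT and 0.816 for IL-10 B-KO lungs (exact permutation p adjusted = 0.0153 and 0.0936, n = 6 each). Mpo showed no relation to S100a8 that passed over the 12 lungs (r = -0.477, adjusted p = 0.159, rho = -0.566, adjusted p = 0.0924). Without IL-10 B-WT replicates 1 and 2, whose Mpo lay farthest from the median, r was -0.916 (adjusted p = 4.12e-04), and within the IL-10 B-KO lungs it was -0.952 (exact permutation p adjusted = 0.0229, n = 6), against -0.698 (adjusted p = 0.143) within the IL-10 B-WT lungs. Among the IL-10 B-KO lungs, those with the most S100a8 (replicates 5, 6 and 3) thus had the least Mpo. For Mpo and Ngp, r was 0.931 among IL-10 B-WT lungs (exact permutation p adjusted = 0.0183, rho = 0.886, n = 6). It was -0.911 among IL-10 B-KO lungs (exact permutation p adjusted = 0.0240, rho = -0.771, n = 6) and 0.523 over all lungs (adjusted p = 0.138, rho = 0.126, adjusted p = 0.748). IL-10 B-WT replicates 1 and 2 were the lowest lungs for both genes, with Mpo at 0.15 and 0.82 TPM. Without them, r over the remaining lungs was -0.60 (permutation p adjusted = 0.101). Among IL-10 B-KO lungs, Mpo spanned only 1.25 to 2.44 TPM. The difference between the r of the 2 genotypes was not tested. The points of every relation share a library and its total.

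S100a8 and Ngp showed no relation that passed over the 12 lungs (r = 0.271, adjusted p = 0.449, rho = 0.399, adjusted p = 0.276). IL-10 B-WT replicate 1 was 4th of the 12 lungs for S100a8 and last for Ngp, while IL-10 B-KO replicates 3, 5 and 6 were the first 3 for both. S100a8 followed S100a9, Retnlg (r = 0.976, rho = 0.979) and Csf3r (r = 0.951, rho = 0.951) with an adjusted p of 3.67e-05 for r and for rho in each, and r stayed at 0.929 or more within each genotype and at 0.946 or more without IL-10 B-KO replicates 5 and 6.

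**Figure D3:**
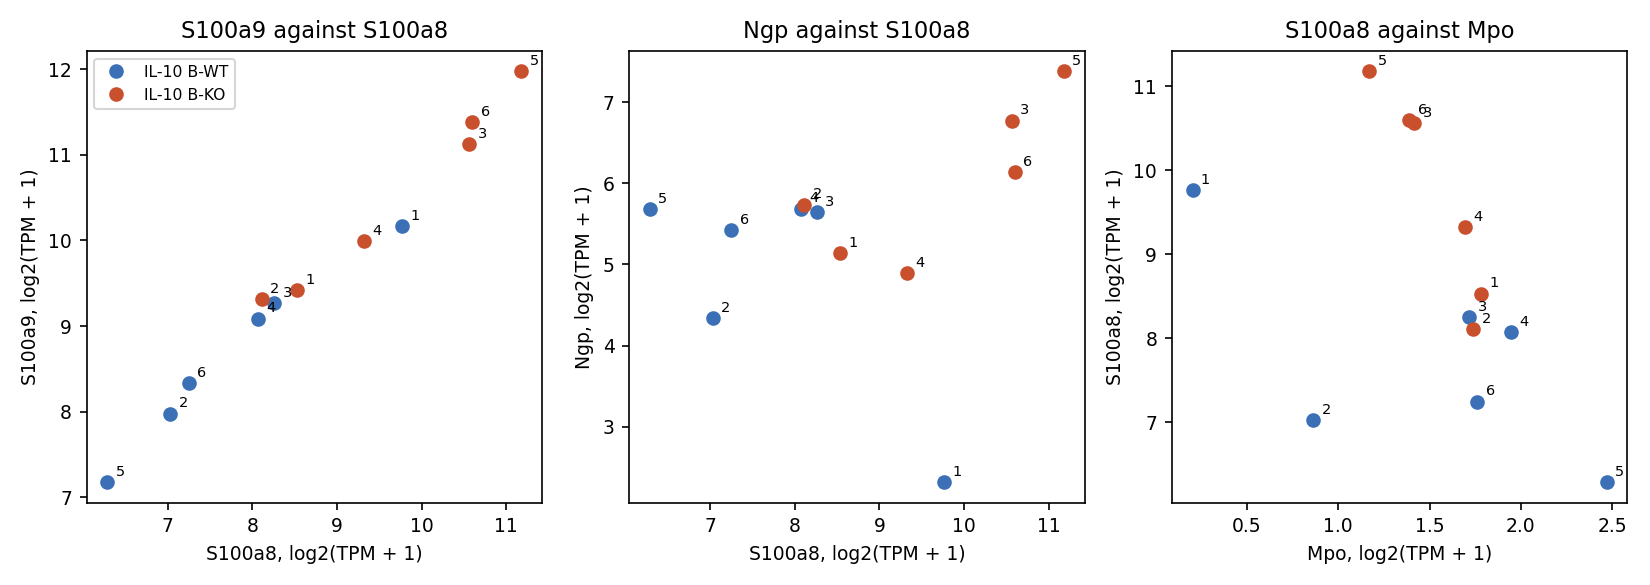
Log2(TPM + 1) of S100a9 against S100a8 (left), Ngp against S100a8 (middle) and S100a8 against Mpo (right) in the 12 lungs, numbered by replicate, with IL-10 B-WT in blue and IL-10 B-KO in orange. The points of S100a9 and S100a8 lie on a line (r = 0.992), those of Ngp and S100a8 do not (r = 0.271), and S100a8 is lower where Mpo is higher among the IL-10 B-KO lungs (r = -0.952).

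Early and late genes were then set against each other in each lung, as the mean log2(TPM + 1) of the 4 mature genes minus that of Elane and Mpo. The early side rests on Elane and Mpo alone, and Prtn3, another primary granule gene, had a log2 fold change of 0.90. The difference was 3.23 to 8.64 in IL-10 B-WT lungs (median 5.30), against 5.58 to 8.93 among IL-10 B-KO lungs (median 7.41). The IL-10 B-WT lung at 8.64 was replicate 1, and 5 of 6 IL-10 B-KO lungs were above the other 5 IL-10 B-WT lungs. The means were 5.48 ± 1.77 and 7.30 ± 1.37 (SD, n = 6 each). No test was made of such scores, since the genes were chosen with results of these lungs known.

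The specific granule genes minus the primary granule genes gave 4.29 ± 0.89 for IL-10 B-WT and 5.49 ± 0.96 (SD, n = 6 each) for IL-10 B-KO lungs, with 4 of 6 IL-10 B-KO lungs above every IL-10 B-WT lung. The mature minus the specific granule genes gave 1.19 ± 1.22 and 1.81 ± 0.62 (SD, n = 6 each), and the highest of all lungs was IL-10 B-WT replicate 1 at 3.47. Without that lung, the difference between the genotypes in this measure was 1.07 instead of 0.62. Without Lcn2 among the specific granule genes, it was 1.05, and that of the specific minus the primary genes was 0.77 instead of 1.20. The mean level of the primary genes varied less among the IL-10 B-KO lungs (1.48 ± 0.24) than among the IL-10 B-WT lungs (1.46 ± 0.83), and this was not tested.

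**Figure D4:**
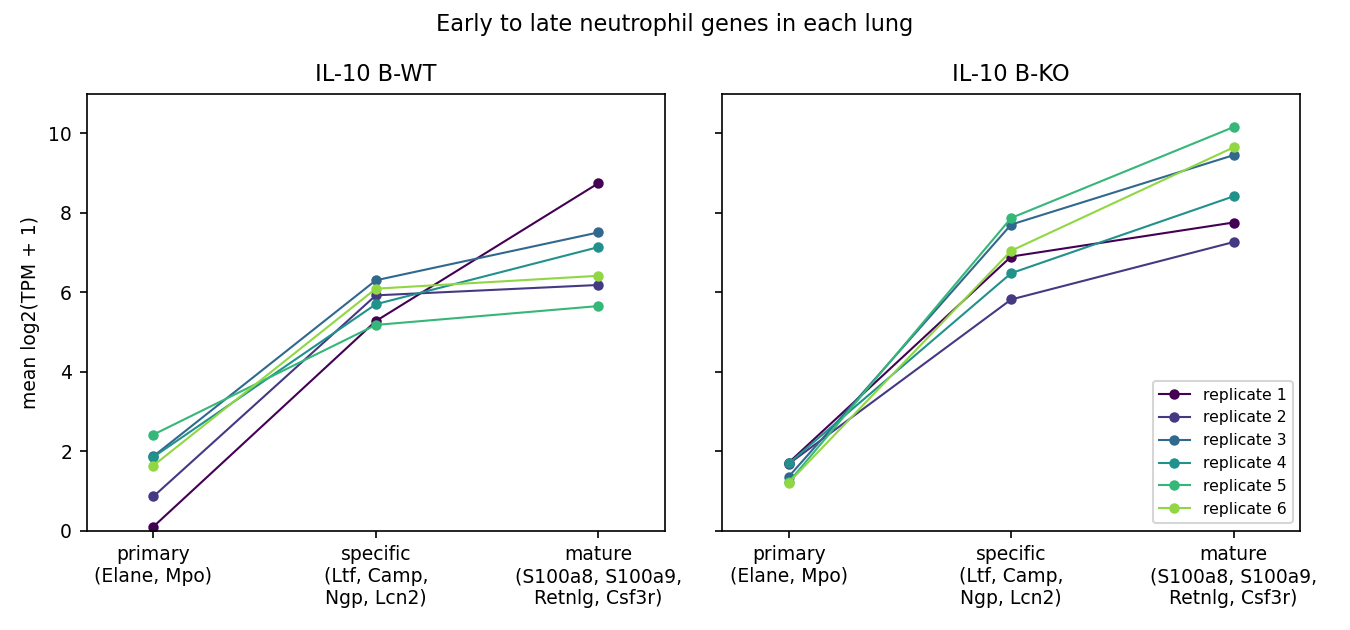
Mean log2(TPM + 1) of the primary granule, specific granule and mature genes (horizontal axis) in each lung, 1 line per lung, for IL-10 B-WT (left) and IL-10 B-KO (right). The IL-10 B-KO lines start between 1.21 and 1.71 and end between 7.26 and 10.2, and the steepest IL-10 B-WT line is that of replicate 1, from 0.10 to 8.74.

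Wider lists of genes of the same stages, which hold the 10 genes too, are given next. Of 28 mature neutrophil genes, 27 had a log2 fold change above 0 (63.2% of all genes tested did), with a median of 1.55. At an unadjusted p no larger than 0.05, 19 were higher, as were 6.83% of all genes tested. None passed the adjusted threshold over all 12 lungs. Without IL-10 B-WT replicate 1, 18 did, where 2.37% of all genes tested passed as higher. The decoy interleukin-1 receptor Il1r2 (2.38, adjusted p = 0.292), the lectin receptor Clec4d (2.33, adjusted p = 0.340), the chemokine Ccl3 (2.35, adjusted p = 0.413) and the protease Asprv1 (2.21, adjusted p = 0.342) had the largest values. Cxcr2, the receptor through which neutrophils follow CXC chemokines, was among the 5 genes most like S100a8 (r = 0.985, rho = 0.993), with Padi4, an enzyme of extracellular trap formation (r = 0.991, rho = 0.958), Stfa2l1 (r = 0.979) and A530064D06Rik (r = 0.989). G0s2 was the only one of the 28 below 0, at -0.65 (limma unadjusted p = 0.0383, adjusted p = 0.378).

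Of 18 specific and gelatinase granule genes, all had a log2 fold change above 0 (63.2% of all genes tested did), with a median of 1.19. At an unadjusted p no larger than 0.05, 10 were higher, as were 6.83% of all genes tested. None passed the threshold over all 12 lungs. Without IL-10 B-WT replicate 1, 3 did (2.37% of all genes tested passed as higher). The collagenase Mmp8 was at 7.22 ± 7.69 TPM (IL-10 B-WT) and 36.7 ± 31.5 TPM (IL-10 B-KO, SD, n = 6 each), or 2.04 as a log2 fold change (limma adjusted p = 0.235). Chil3, which macrophages also express, and Orm1, an acute phase protein, were at 1.77 and 1.78 (limma adjusted p = 0.349 and 0.379). Ficolin B (Fcnb), a lectin of immature neutrophils, was at 0.03.

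Of 12 primary granule and promyelocyte genes, 10 passed the filter, 9 of them above 0 (63.2% of all genes tested were), with a median of 0.48. Of these 10, 3 (Prtn3, Igsf6 and Lyz2) were higher at an unadjusted p of at most 0.05, as were 6.83% of all genes tested. Gstm1 was lower at that p, as were 5.71% of all genes tested. No gene of this list passed the threshold over all 12 lungs. Without IL-10 B-WT replicate 1, 1 did (2.37% of all genes tested passed as higher). The 2 below the filter were the serine protease gene Ctsg (0.07 to 0.98 TPM in all lungs) and Ms4a3 (0 to 0.81 TPM), both genes of early granulocyte precursors. Prtn3, the gene of proteinase 3 that lies 3.1 kb from Elane, was at 2.53 ± 1.16 TPM (IL-10 B-WT) and 5.58 ± 2.32 TPM (IL-10 B-KO, SD, n = 6 each), or 0.90 as a log2 fold change, with a standard error of 0.28 (exact permutation p = 0.0152, limma adjusted p = 0.254). It was the gene 2nd most like Ngp (r = 0.870, rho = 0.741), after Camp and before Acot2, a mitochondrial thioesterase (r = 0.824, rho = 0.713), Gp1bb, a platelet glycoprotein (r = 0.803, rho = 0.692), and Ly6g6c (r = 0.80, rho = 0.846). The others with large values were Igsf6 (1.80), lysozyme (Lyz2, 1.19) and Gstm1 (-1.14), of which the first 2 are also expressed by macrophages (limma adjusted p = 0.328, 0.399 and 0.352).

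Among 14 regulators of granulopoiesis, 13 were tested and 11 were above 0 (63.2% of all genes tested were), with a median of 0.63. At an unadjusted p no larger than 0.05, 3 were higher, as were 6.83% of all genes tested. These 3 were Csf3r, Spi1 and Cebpa (0.63, limma adjusted p = 0.328). Spi1, which encodes the myeloid factor PU.1, was at 1.26 (limma adjusted p = 0.367), Cebpb at 0.95 (adjusted p = 0.441) and Socs3, a feedback inhibitor of cytokine receptors, at 1.21 (adjusted p = 0.448). The 6 subunits of the NADPH oxidase, the source of the respiratory burst, had a median of 1.28, with Cybb at 1.39, Ncf4 at 1.34 and Ncf1 at 1.31 (limma adjusted p = 0.415, 0.397 and 0.456). Of 7 neutrophil chemoattractants, 6 were above 0, with Cxcl2 at 2.34, Cxcl3 at 1.76, Cxcl1 at 1.22 and Cxcl15 at 1.14 (limma adjusted p = 0.432, 0.473, 0.537 and 0.330). None of these 3 lists had a gene past the threshold over all 12 lungs.

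Genes of other cells differed alongside the late neutrophil genes. All 16 monocyte and macrophage genes had a log2 fold change above 0 (63.2% of all genes tested did). Their median was 1.57, which is as large as that of the mature neutrophil genes. At an unadjusted p no larger than 0.05, 12 were higher, as were 6.83% of all genes tested. None passed the threshold over all 12 lungs. Without IL-10 B-WT replicate 1, 6 did (2.37% of all genes tested passed as higher). Their summed level was 245.3 to 3205 TPM among IL-10 B-WT lungs, against 644.3 to 4249 TPM among IL-10 B-KO lungs, and no gene of the list was at 0 throughout. The scavenger receptor Msr1 (2.32), the Fc receptor Fcgr1 (2.15), F13a1 (2.14) and Adgre1, which encodes F4/80 (1.94), led this list (limma adjusted p = 0.353, 0.328, 0.199 and 0.326). The 8 proliferation genes had a median of 0.96, with Cdk1 at 1.61, Birc5 at 1.14, Top2a at 1.03 and Rrm2 at 1.02 (limma adjusted p = 0.330, 0.417, 0.417 and 0.433). The part of monocytes and macrophages in the values of S100a8, S100a9, Csf3r and Lcn2, which these cells also express, was not tested. Nor was their part in the wider list of mature neutrophil genes, Ccl3 and Clec4d among them. Ly6g, the surface marker that separates neutrophils from monocytes, was at 1.87 ± 1.10 TPM (IL-10 B-WT) and 7.01 ± 5.57 TPM (IL-10 B-KO, SD, n = 6 each), and all 6 IL-10 B-KO lungs were above the 5 IL-10 B-WT lungs other than replicate 1 (log2 fold change 1.27, limma adjusted p = 0.268).

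The 7 erythroid genes lay below 0, with a median of -1.20 and no gene at an unadjusted p of at most 0.05. The largest differences were those of the globin genes Hba-a2 (-1.47), Hba-a1 (-1.40), Hbb-bs (-1.29) and Hbb-bt (-1.20) (limma adjusted p = 0.449 to 0.514). The list summed to 2958 to 96332 TPM in IL-10 B-WT lungs, against 3523 to 22587 TPM among the IL-10 B-KO lungs. The lowest sum of all lungs was that of IL-10 B-WT replicate 1, which also had the least Elane and Mpo, and the highest was that of IL-10 B-WT replicate 5, which had the most. Alas2, the heme synthesis enzyme of red cell precursors, was at 7.31 TPM in IL-10 B-WT replicate 1 and at 279.1 TPM in replicate 5. The genes most like Mpo after Elane were mt-Nd3 (r = 0.887, rho = 0.790), Gm37750, Inafm1 and Ifitm10 (r = 0.845 to 0.858). The part of blood left in the tissue in the values of Elane and Mpo was not tested.

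Epithelial and endothelial genes had medians nearer 0. The 8 alveolar genes had a median of 0.48, with the largest differences for Lamp3 (1.27), the surfactant protein genes Sftpa1 (1.09) and Sftpb (0.74) and the water channel Aqp5 (0.48). The 7 tested airway genes had a median of -0.45, with Scgb1a1 at -1.12, Scgb3a2 at -0.89, Bpifb1 at -0.48 and Bpifa1 at -0.45, and the 8 endothelial genes a median of -0.37, with the VEGF receptor Kdr at -0.71, Plvap at -0.51, Cdh5 at -0.40 and Cldn5 at -0.38. None of these 12 genes had a limma adjusted p below 0.342. Among the 8 alveolar genes, 3 (Lamp3, Sftpa1 and Sftpb) were higher at an unadjusted p of at most 0.05, as were 6.83% of all genes tested. Among the 8 endothelial genes, 1 (Kdr) was lower at that p, as were 5.71% of all genes tested, and 0 of the airway genes differed at that p. Of the 9 genes of eosinophils, basophils and mast cells, 2 passed the filter, the mast cell protease Cpa3 at -1.01 (adjusted p = 0.0961) and Siglecf, which is also on the macrophage list, at 0.52 (adjusted p = 0.466), and Epx, the eosinophil peroxidase, was listed at 0 to 0.05 TPM. The 8 B cell genes had a median of -2.45, with Ighd at -3.58 and Pax5 at -2.87 (limma adjusted p = 0.130 and 0.0731), and Cd79a (log2 fold change -4.16, limma adjusted p = 0.0222) was the only gene of all these lists past the threshold over the 12 lungs.

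**Figure D5:**
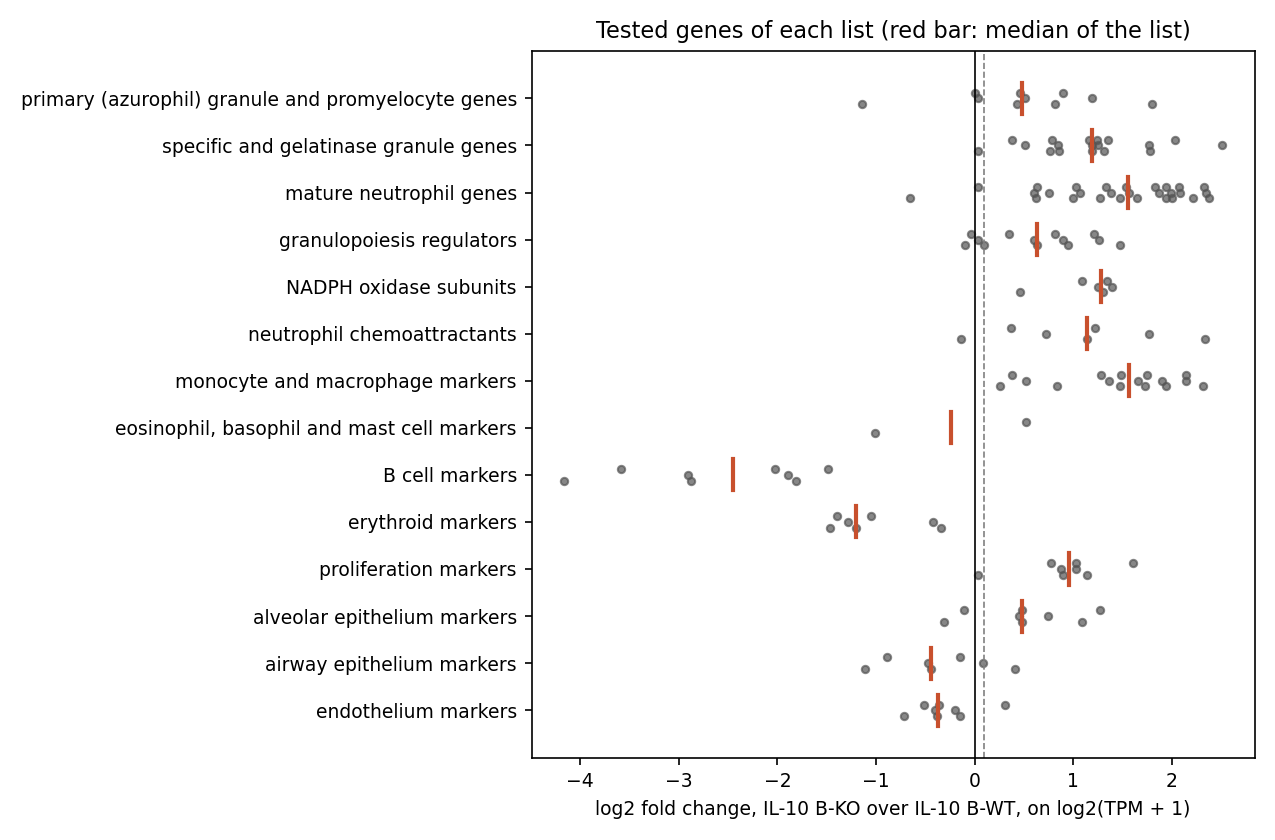
Log2 fold change on log2(TPM + 1) (horizontal axis, IL-10 B-KO over IL-10 B-WT) of each tested gene of the 14 lists, 1 point per gene, with the median of each list as a red bar and that of all genes tested (0.10) as a dashed line. The mature neutrophil (median 1.55) and monocyte and macrophage (1.57) lists lie farthest to the right, and the B cell (-2.45) and erythroid (-1.20) lists farthest to the left.

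The B cell transcripts of IL-10 B-KO replicates 2 and 6 did not mark a common level of the neutrophil genes. Replicate 2 had the lowest S100a8, S100a9, Retnlg, Csf3r and Lcn2 of the IL-10 B-KO lungs and replicate 6 the second highest of S100a8, S100a9, Retnlg and Lcn2 and the highest Csf3r. Without both lungs, the log2 fold changes of S100a8, S100a9 and Csf3r were 2.12, 1.96 and 1.64, and none of the 10 genes passed the threshold.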

How the data were processed

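Whole-lung RNA was sequenced from IL-10 B-WT mice (n = 6) and mice lacking B cell IL-10 (IL-10 B-KO, n = 6), 1 library per lung. The authors deposited TPM, rounded to 2 decimals, which the study's methods derive with RSEM. The submitters' processing notes also name fastp, HISAT and GRCm38.p5. Versions and the annotation release are not given in the sources used here. TPM keep no depth, so no count model was fitted. Columns were matched to samples by name, and groups came from the genotype and the titles. Nothing states that lungs came from separate litters or days, so that p-values measure the spread between these 12 lungs.

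Log2(TPM + 1) was fitted with limma 3.58.1 in R 4.3.3 (lmFit, eBayes with trend, genotype as the sole factor) over the 15148 genes that reached 1 TPM in 6 or more libraries, with Benjamini-Hochberg adjustment over all of them. All 10 genes passed this filter. The threshold for a call was an adjusted p no larger than 0.05 and a log2 fold change of 1 or more in size. The fit was also run on simulated data with independent noise for each gene, which lack the variation that genes of a lung share. Single genes were compared by two-sided exact permutation tests, and relations between genes by two-sided permutation with 100000 resamples (within a genotype, by all arrangements), adjusted over 11 relations. Coordinates are from GENCODE release M21 (GRCm38), matched by gene ID, and promoter windows from RefSeq (GRCm38.p6), matched by symbol for 10 of 10 genes. 1 listed gene, Il1f9, was found under its other symbol Il36g. Python 3.11.15, pandas 2.3.3, NumPy 2.4.6, SciPy 1.17.1 and matplotlib 3.10.9 were used.

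The 10 genes and the 14 lists were chosen with earlier results of these data known. The text names all 10 genes, the 4 genes with the largest absolute log2 fold change of each list, the 5 genes most like S100a8, Ngp, Mpo and Lcn2, and Il10 and Cd79a. Of the genes this rule names, 2 are not reported here. Csf3, Ly6g, G0s2, Fcnb, Ctsg, Ms4a3, Alas2, Epx, Prg2, Cxcr2 and Cebpa were added after their values were seen. The fits were repeated with 0.1 as pseudocount, without the filter or with one on mean TPM (5 or more), on TPM rescaled after removal of immunoglobulin genes, on quantile-normalized or median-centred values, with weights per array, with a replicate block, and with each library omitted once. Leaving out IL-10 B-KO replicates 2 and 6 together was added after seeing the data.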

Additional observations from a re-analysis of the deposited data

Results flagged for a closer look

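Of 26 sets of 6 lungs examined (10 genes and 3 differences between stages in each genotype), 2 held a lung set apart from the rest, where chance gives about 1 in 20. In each, the gap between the extreme lung and the next one, as a share of the range of the group, was above the 95% critical value of Dixon's test for 6 samples. Lcn2 in IL-10 B-KO replicate 2 was lowest, with a ratio of 0.691 on the log2(TPM + 1) scale, at 166.5 TPM against 1962 to 5907 TPM in the other 5 lungs. The difference of the mature minus the specific granule genes in IL-10 B-WT replicate 1 was highest, with a ratio of 0.634, at 3.47 against 0.26 to 1.44 in the other 5 lungs.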

How the results depend on the processing

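S100a8, S100a9, Retnlg, Csf3r, Lcn2, Ngp, Camp and Ltf kept a log2 fold change above 0 under all alternatives run. Elane turned to -0.0256 with TPM rescaled without immunoglobulin genes, -0.0511 with quantile normalization, -0.10 with median centring and -0.13 with array quality weights, and Mpo to -0.0682 with median centring and to -0.0017 with array quality weights. With a pseudocount of 0.1 they were 0.39 and 0.28, and the difference of the mature minus the primary genes was 1.52 instead of 1.82. With a mean TPM of at least 5, both were left out by the filter. With each library left out in turn, Elane was between -0.28 and 0.19 and Mpo between -0.22 and 0.23. The number of the 10 genes past the threshold was 0 in all alternatives except without IL-10 B-WT replicate 1, and with each library left out it was between 0 and 4. With each library left out, between 3 and 6 of the 10 had an unadjusted p of at most 0.05, 3 without replicate 5 of IL-10 B-WT, or replicate 5 or 6 of IL-10 B-KO. The cause was not tested.

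Same-numbered lungs of the genotypes did not deviate together (correlations over genes between -0.292 and 0.046 in 6 pairs, and 0 lungs correlated best with their own number). No pairing by number was thus seen in expression, which cannot show whether same-numbered lungs shared a litter or day. With the replicate block, 0 of the 10 genes passed the threshold, 6 had an unadjusted p of at most 0.05, and the median log2 fold change was 1.32. Over all genes, 75 were called in the main analysis, 6 with no filter, 27 with TPM rescaled without immunoglobulin genes, 36 with median centring, 39 with quantile normalization, 45 with the replicate block, 318 with array quality weights and 604 without IL-10 B-WT replicate 1. Median centring moved the median of all genes from 0.10 to -0.01.

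Of the 11 relations, 6 passed over the 12 lungs. The weak ones changed sign: S100a8 and Ngp had r = -0.098 without the lungs farthest from the median and -0.686 within IL-10 B-WT, Ngp and Ltf -0.084 and Ngp and Lcn2 0.109 without those lungs, Ngp and Lcn2 0.425 within IL-10 B-KO, and Mpo and Ngp -0.60 without those lungs and -0.911 within IL-10 B-KO. TPM hold no depth, so that values of Elane, Mpo and Csf3 near 0 have no known counting error.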
